A study of Mus musculus with 8 samples.

Results

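In lumbar dorsal root ganglia (DRGs) of mice without α-galactosidase A (α-Gal A), 7 of 53 genes for lysosomal proteins rose, by 1.18- to 1.44-fold, and 0 fell, where 2.02% of all compared genes rose and 1.1% fell (adjusted p under 0.05 in limma). The 53 genes described here encode lysosomal hydrolases, proteins of the lysosomal membrane and the proteins that mature and sort the hydrolases. They were chosen by name, as all probes other than controls that carry 1 of the 53 symbols. The choice was made with earlier results of these data known, so the shares of all genes are set beside the counts as a description. All 53 genes were found, on 75 of the 55681 probes of the array. Of these probes 73 were well above background on all 8 arrays, at least 1 for each gene, so that no member was lost to the filter on dim probes. The values below are those of the brightest such probe of each gene, and the same was done for the 21063 genes that could be compared in all.

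The lysosome is the acidic compartment in which cathepsins and other hydrolases break down proteins, glycans, lipids and nucleic acids that arrive by endocytosis, phagocytosis or autophagy. Most soluble hydrolases receive a mannose 6-phosphate tag in the Golgi, are carried onward by mannose 6-phosphate receptors, and work inside a membrane that is lined with glycoproteins and holds the transporters for the products. α-Gal A is itself such a hydrolase. It removes the terminal galactose from globotriaosylceramide, and its loss causes Fabry disease, in which this lipid accumulates and pain of peripheral origin is an early symptom.

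The comparison asked which mRNAs differ in sensory ganglia when the enzyme is missing. There were 4 samples from male α-Gal A(-/0) mice on a C57BL/6 background and 4 from male wildtype C57BL/6J mice, aged 20 to 24 weeks in both groups, and every sample pooled the lumbar DRGs of 2 mice. Neither group had been treated. The deficiency was constitutive and present in all cells. Both lines were kept as separate inbred colonies, so that genotype and colony cannot be told apart. A DRG holds the cell bodies of sensory neurons with satellite glia, Schwann cells, vessels, connective tissue and macrophages. In such bulk tissue fewer cells of a type and less RNA per cell cannot be told apart. All 14 marker genes of sensory neurons were above background, with a mean log2 signal of 14.93 to 14.98 in α-Gal A(-/0) samples and 14.91 to 15.03 in wildtype samples.

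The 8 samples were measured in 1 color on the 8 arrays of 1 slide in 1 scan, with 56.5 to 60.8% of probes well above background and 0 saturated spots. Signals are given as log2 values after quantile normalization, and fold changes are those of α-Gal A(-/0) over wildtype from the linear models of limma. When limma estimated the reliability of each array, wildtype samples 1 and 2 received the lowest weights, 0.243 and 0.501, against 0.890 to 1.90 for the other arrays. Gla, the targeted gene, had signals of 16.71, 16.51, 16.51 and 16.62 in α-Gal A(-/0) samples and 16.69, 16.72, 16.49 and 16.56 in wildtype samples (log2 fold change -0.03, SE 0.075, adjusted p = 0.879). These ranges overlap, and as it is not known whether its probe lies in the part that was disrupted, the value checks neither label.

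The 7 lysosomal genes that rose were Cd63, Manba, Npc2, Tpp1, Aga, Man2b1 and Lipa. At an unadjusted p under 0.05 there were 20 members with higher and 0 with lower values, beside 10.6% and 7.11% of all genes. In 18 members every α-Gal A(-/0) sample was above every wildtype sample and in 1, Sgsh, every one was below, where 8.62% and 5.12% of all genes were so separated. The log2 fold change was positive in 43 members (81.1%) and in 55.7% of all genes. Its median was 0.12 over the members and 0.02 over all genes, which makes the typical difference small. It ran from -0.17 for Dnase2a to 0.61 for Acp5, whose samples varied most.

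The shift was seen in each sample. The median deviation of the 53 genes from the wildtype mean was 0.13, 0.12, 0.11 and 0.14 in α-Gal A(-/0) samples 1 to 4, with 45, 43, 36 and 41 of the genes above that mean. In wildtype samples 1 to 4 the median deviation was 0.00, -0.03, 0.01 and 0.00, with 28, 21, 31 and 28 genes above. The wildtype values lie near 0 because the deviations are taken from the wildtype mean. Over all genes the median deviation was 0.014, 0.025, 0.020 and 0.016 in α-Gal A(-/0) samples and -0.0059, 0.0041, 0.0023 and 0.0024 in wildtype samples, so that the groups were separate there as well, by a smaller distance. The arrays lay in 2 rows of the slide, and the median difference was 0.17 within row 1 (α-Gal A(-/0) samples 1 to 3 and wildtype sample 1) and 0.12 within row 2 (α-Gal A(-/0) sample 4 and wildtype samples 2 to 4). The members also varied less between samples in the α-Gal A(-/0) group, with a median SD of 0.063 against 0.107 in the wildtype group, as did all genes, with 0.088 against 0.134.

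**Figure D1:**
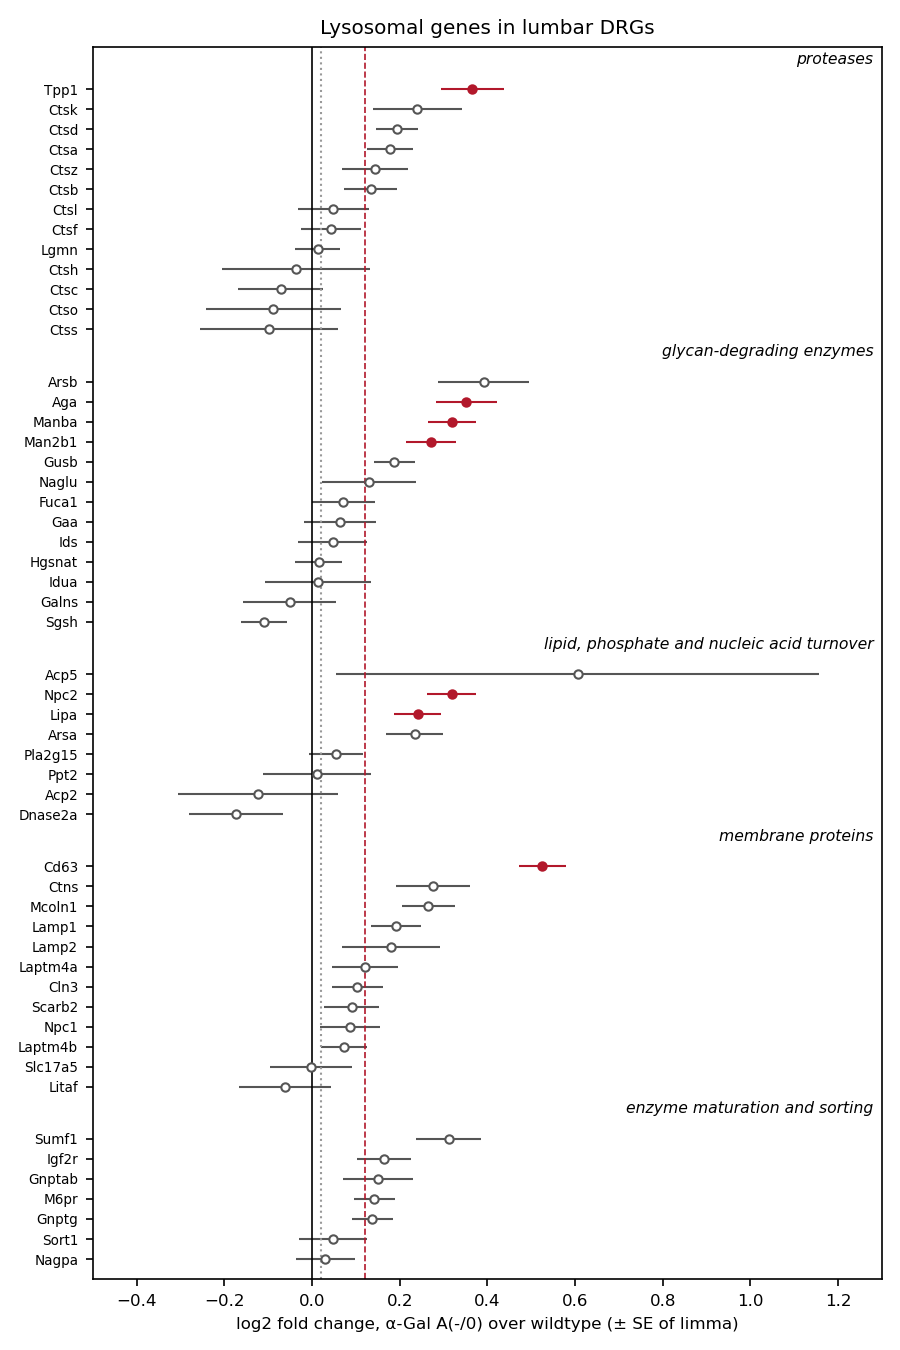
Log2 fold change of each of the 53 genes (x axis, α-Gal A(-/0) over wildtype) with its standard error from limma, grouped by role. Filled red points have an adjusted p under 0.05, the dashed red line is the median of the members (0.12) and the dotted gray line that of all compared genes (0.02). Most points lie right of 0, and the bar of Acp5 is the widest.

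**Figure D2:**
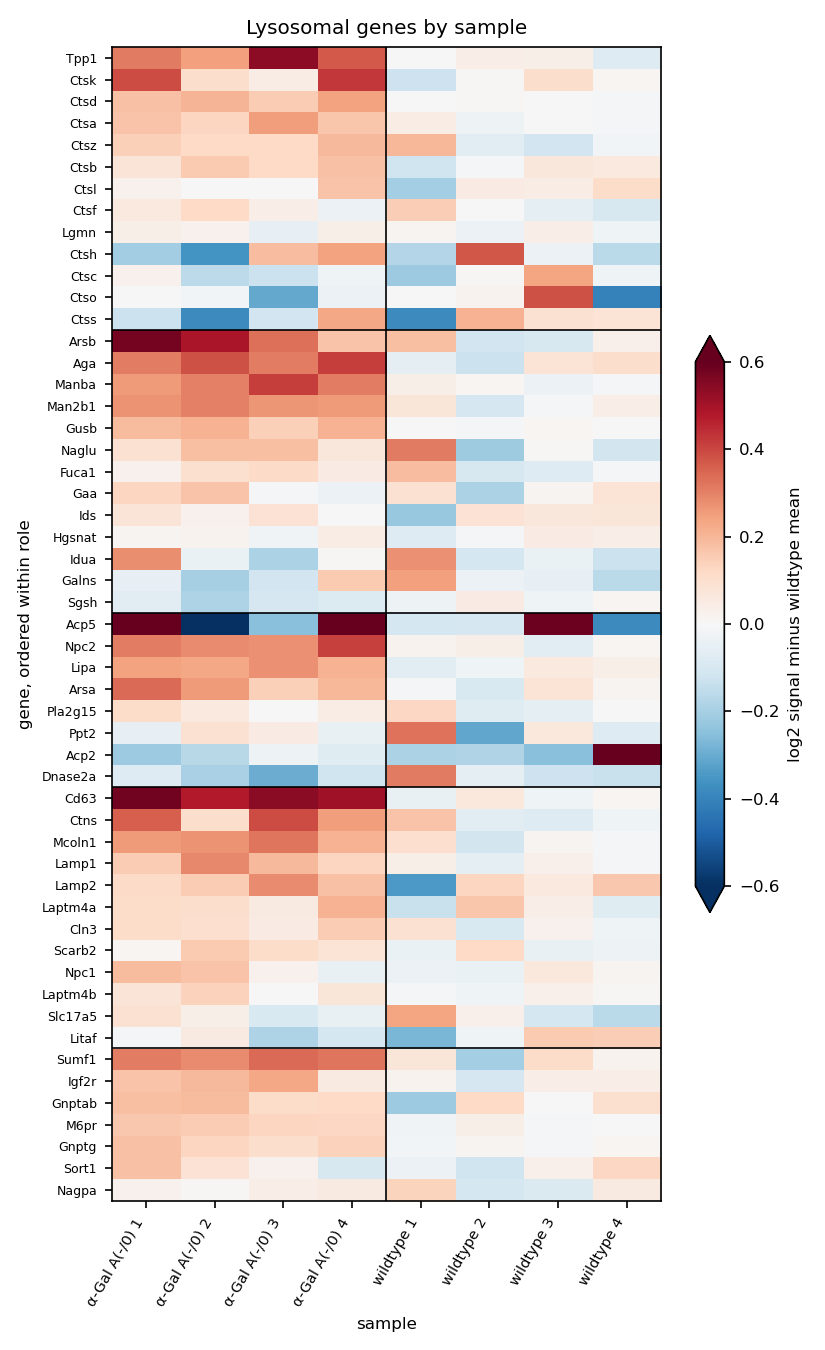
Deviation of each gene from its wildtype mean (color, log2 signal, limited to -0.6 and 0.6) in the 4 α-Gal A(-/0) samples and the 4 wildtype samples, by role from proteases at the top to enzyme maturation and sorting at the bottom. The upper rows of each role are red in all 4 α-Gal A(-/0) columns, whereas Acp5 changes color within both groups.

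Among 12 membrane proteins Cd63 rose, 10 had positive values and the median was 0.11. Cd63 is a tetraspanin of late endosomes and lysosomes that also marks exosomes. Its signals were 15.46, 15.36, 15.42 and 15.39 in α-Gal A(-/0) samples and 14.84, 14.95, 14.86 and 14.89 in wildtype samples. The groups are far apart relative to their spread, with means of 15.41 ± 0.044 and 14.88 ± 0.048 (SD, n = 4 each). This is a rise of 1.44-fold, or 0.53 on the log2 scale with an SE of 0.053 (adjusted p = 0.00131). Its probe lies on chromosome 10, from 128349813 to 128349872 of mm9, and 0 of the 42 other compared genes within 1 Mb of it changed.

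Mcoln1 encodes the cation channel mucolipin 1, which releases calcium from lysosomes. It reached 14.03, 14.05, 14.10 and 13.99 in α-Gal A(-/0) samples and 13.88, 13.67, 13.79 and 13.77 in wildtype samples. The groups did not overlap, but the difference just missed the threshold (log2 fold change 0.26, SE 0.061, adjusted p = 0.0565). Lamp1, a major glycoprotein of the membrane, had 16.34, 16.48, 16.38 and 16.32 in α-Gal A(-/0) samples and 16.22, 16.13, 16.22 and 16.18 in wildtype samples (log2 fold change 0.19, adjusted p = 0.124). Here too every α-Gal A(-/0) sample was higher. Its relative Lamp2 overlapped on its brightest probe, with 12.96 to 13.13 in α-Gal A(-/0) samples and 12.50 to 13.01 in wildtype samples. Wildtype sample 1 was far below the other wildtype samples there (log2 fold change 0.18, adjusted p = 0.440). On the second probe of Lamp2 every α-Gal A(-/0) sample was higher (log2 fold change 0.22, SE 0.060, adjusted p = 0.101). Ctns, the cystine exporter, had 11.98, 11.73, 12.02 and 11.88 in α-Gal A(-/0) samples and 11.80, 11.56, 11.55 and 11.60 in wildtype samples (log2 fold change 0.28, adjusted p = 0.135), and the highest wildtype sample exceeded the lowest α-Gal A(-/0) sample. On their brightest probes the other membrane genes, Npc1, Cln3, Scarb2, Laptm4a, Laptm4b, Slc17a5 and Litaf, lay between -0.06 and 0.12 on the log2 scale. Their adjusted p ran from 0.398 to 0.990. They include the cholesterol exporter Npc1 and the sialic acid exporter Slc17a5. A dimmer probe each of Cln3 and Slc17a5 had a larger value, 0.60 and 0.21, with separate groups.

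Of 13 enzymes that degrade glycans 3 rose, and all of them act on the N-linked glycans of glycoproteins. Manba, the β-mannosidase, had 9.42, 9.47, 9.58 and 9.47 in α-Gal A(-/0) samples and 9.20, 9.18, 9.13 and 9.16 in wildtype samples. This is a rise of 1.25-fold (log2 fold change 0.32, SE 0.055, adjusted p = 0.0194). Man2b1, the lysosomal α-mannosidase, had 12.00, 12.04, 12.00 and 11.99 in α-Gal A(-/0) samples and 11.81, 11.64, 11.72 and 11.77 in wildtype samples (1.21-fold, SE 0.056 on the log2 scale, adjusted p = 0.0404). Its α-Gal A(-/0) samples were nearly alike. Aga, the aspartylglucosaminidase that cuts the bond between the glycan and asparagine, had 10.26, 10.34, 10.26 and 10.37 in α-Gal A(-/0) samples and 9.90, 9.82, 10.04 and 10.06 in wildtype samples (1.28-fold, SE 0.070 on the log2 scale, adjusted p = 0.0338). In each of the 3 genes the groups were separate. The fucosidase Fuca1 of the same route had a log2 fold change of 0.07 (adjusted p = 0.646).

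None of the 8 enzymes that degrade glycosaminoglycans (Arsb, Galns, Gusb, Hgsnat, Ids, Idua, Naglu and Sgsh) passed the test. Of all compared genes 2.02% rose and 1.1% fell, so that 0 of 8 is near that share. A difference from the enzymes of N-linked glycans was not tested. With array weights Arsb and Gusb were called as higher. Gusb, the β-glucuronidase, came closest with 10.70, 10.72, 10.66 and 10.72 in α-Gal A(-/0) samples and 10.52, 10.50, 10.53 and 10.51 in wildtype samples (log2 fold change 0.19, SE 0.048, adjusted p = 0.0770). Both groups were tight and apart on this probe, but they overlapped on a second probe of Gusb (log2 fold change 0.21, SE 0.081, adjusted p = 0.219). Arsb, arylsulfatase B, which takes sulfate off dermatan sulfate, had 7.77, 7.68, 7.53 and 7.37 in α-Gal A(-/0) samples and 7.38, 7.08, 7.10 and 7.23 in wildtype samples (log2 fold change 0.39, SE 0.104, adjusted p = 0.0877), so that the groups met at their edges. Sgsh, the sulfamidase of heparan sulfate, was the member with all α-Gal A(-/0) samples below the wildtype samples, with 14.41, 14.29, 14.37 and 14.39 in α-Gal A(-/0) samples and 14.44, 14.52, 14.45 and 14.49 in wildtype samples. The difference of -0.11 on the log2 scale was not called (adjusted p = 0.327), and a dimmer probe of Sgsh had a log2 fold change of 0.18 (adjusted p = 0.312). The acid glucosidase Gaa, which degrades glycogen, had 0.06 (adjusted p = 0.728).

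Of 8 genes for the turnover of lipids, phosphate esters and nucleic acids 2 rose. Npc2 binds cholesterol in the lumen and hands it to Npc1. It had 13.23, 13.20, 13.19 and 13.33 in α-Gal A(-/0) samples and 12.94, 12.96, 12.85 and 12.93 in wildtype samples, a rise of 1.25-fold (log2 fold change 0.32, SE 0.056, adjusted p = 0.0209). Lipa, the acid lipase that frees cholesterol from its esters, had 11.14, 11.13, 11.17 and 11.11 in α-Gal A(-/0) samples and 10.83, 10.88, 10.96 and 10.93 in wildtype samples (1.18-fold, SE 0.053 on the log2 scale, adjusted p = 0.0484). Groups were separate in both genes, and Lipa was the closest of the 7 to the threshold. Npc1, the membrane partner of Npc2, had a log2 fold change of 0.09 (adjusted p = 0.555). Arsa, arylsulfatase A, which degrades the myelin lipid sulfatide, had 13.64, 13.56, 13.44 and 13.50 in α-Gal A(-/0) samples and 13.29, 13.21, 13.39 and 13.32 in wildtype samples, again without overlap (log2 fold change 0.23, SE 0.065, adjusted p = 0.103).

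Acp5, the tartrate-resistant acid phosphatase that marks osteoclasts and some macrophages, behaved differently. It had 11.37, 8.95, 9.38 and 11.27 in α-Gal A(-/0) samples and 9.53, 9.54, 10.22 and 9.26 in wildtype samples. α-Gal A(-/0) samples 1 and 4 were high and samples 2 and 3 were not, and the SD of 1.26 was the largest of any member (log2 fold change 0.61, SE 0.551, adjusted p = 0.606). A second probe of Acp5 gave 0.61 as well. Ctsk, the collagen-degrading cathepsin of osteoclasts, was also highest in α-Gal A(-/0) samples 1 and 4, with 11.41, 11.12, 11.06 and 11.44 in α-Gal A(-/0) samples and 10.89, 11.02, 11.12 and 11.03 in wildtype samples (log2 fold change 0.24, adjusted p = 0.261). Of 8 markers of osteoclasts and bone, 4 (Mmp9, Calcr, Bglap and Sp7) were not well above background and the other 4 were not called, with a mean log2 signal of 7.66 to 7.92 in α-Gal A(-/0) samples and 7.57 to 7.88 in wildtype samples. Dnase2a, which degrades DNA in lysosomes, had the lowest fold change of all members, with 14.23, 14.11, 14.01 and 14.19 in α-Gal A(-/0) samples and 14.62, 14.25, 14.18 and 14.18 in wildtype samples (log2 fold change -0.17, adjusted p = 0.440).

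**Figure D3:**
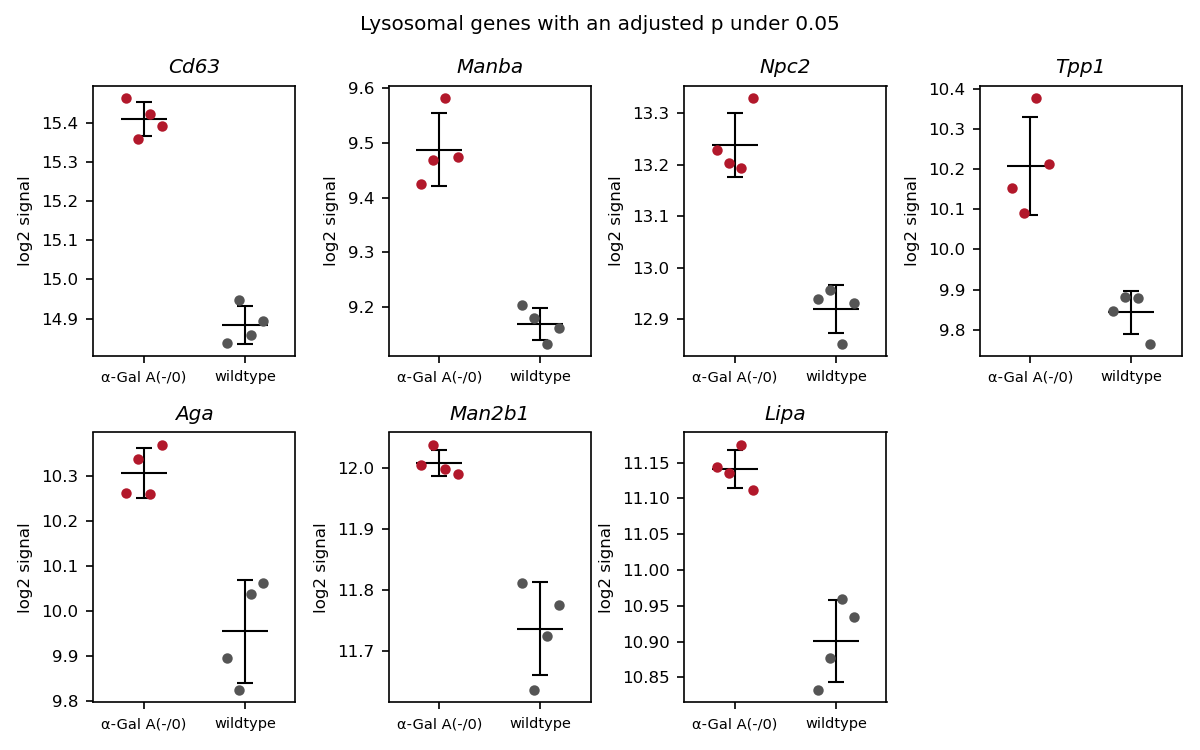
Log2 signal (y axis, a range of its own in each panel that does not start at 0) of the 7 genes with an adjusted p under 0.05 in the 4 α-Gal A(-/0) samples (red, left) and the 4 wildtype samples (gray, right), with the mean and SD of each group in black. The groups are separate in each panel, most widely in Cd63, where the α-Gal A(-/0) samples lie at 15.36 and above and the wildtype samples at 14.95 and below.

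Of 13 proteases 1 rose, 9 had positive values and the median was 0.05. Tpp1, the tripeptidyl peptidase whose loss causes a neuronal ceroid lipofuscinosis, had 10.15, 10.09, 10.38 and 10.21 in α-Gal A(-/0) samples and 9.85, 9.88, 9.88 and 9.76 in wildtype samples. It rose by 0.37 on the log2 scale (1.29-fold, SE 0.072, adjusted p = 0.0336), and α-Gal A(-/0) sample 3 was the highest. Ctsd, the aspartic cathepsin, had 15.69, 15.72, 15.67 and 15.76 in α-Gal A(-/0) samples and 15.52, 15.52, 15.52 and 15.50 in wildtype samples (log2 fold change 0.19, SE 0.048, adjusted p = 0.0728). Ctsa, a carboxypeptidase that also protects β-galactosidase and neuraminidase, had 15.35, 15.31, 15.43 and 15.34 in α-Gal A(-/0) samples and 15.22, 15.15, 15.18 and 15.16 in wildtype samples (log2 fold change 0.18, SE 0.052, adjusted p = 0.120). In both cathepsins the groups were separate on these probes, although neither passed the test. A dimmer probe of Ctsa also separated the groups, whereas they overlapped on a dimmer probe of Ctsd (log2 fold change 0.13, adjusted p = 0.413). The cysteine cathepsins Ctsb, Ctsc, Ctsf, Ctsh, Ctsl, Ctso, Ctss and Ctsz and the legumain gene Lgmn lay between -0.10 and 0.14, with adjusted p from 0.297 to 0.936. Ctss, a cathepsin of antigen-presenting cells, had the lowest of these values and overlapped widely, with 10.95, 10.70, 10.97 and 11.31 in α-Gal A(-/0) samples and 10.70, 11.29, 11.17 and 11.16 in wildtype samples.

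All 7 genes of enzyme maturation and sorting had positive values, with a median of 0.14. None passed the test, although 4 had an unadjusted p under 0.05. Of these, M6pr passed by the methods' t-test. Sumf1 passed with scaling to the 75th percentile, with array weights and with another background correction. Sumf1 makes the formylglycine that all sulfatases need for activity. It had 12.11, 12.09, 12.14 and 12.13 in α-Gal A(-/0) samples and 11.88, 11.60, 11.92 and 11.82 in wildtype samples (log2 fold change 0.31, SE 0.074, adjusted p = 0.0634). The groups were separate and wildtype sample 2 was the lowest. M6pr, which encodes the small mannose 6-phosphate receptor, had 11.37, 11.36, 11.33 and 11.33 in α-Gal A(-/0) samples and 11.18, 11.24, 11.19 and 11.21 in wildtype samples (log2 fold change 0.14, SE 0.047, adjusted p = 0.163). The large receptor Igf2r, which also clears insulin-like growth factor, had 10.80, 10.82, 10.86 and 10.68 in α-Gal A(-/0) samples and 10.65, 10.53, 10.67 and 10.67 in wildtype samples (log2 fold change 0.16, adjusted p = 0.219). Gnptg, a subunit of the phosphotransferase that starts the mannose 6-phosphate tag, had 13.51, 13.46, 13.44 and 13.47 in α-Gal A(-/0) samples and 13.31, 13.35, 13.32 and 13.34 in wildtype samples (log2 fold change 0.14, adjusted p = 0.179). Samples of the groups did not overlap in these 3 genes. The catalytic subunit gene Gnptab, the uncovering enzyme Nagpa and the sorting receptor Sort1 lay between 0.03 and 0.15 and overlapped. Of the 5 sulfatases among the members that Sumf1 serves, Arsa, Arsb, Galns, Ids and Sgsh, none was called. Among all compared genes 2.02% rose, and a count over 5 genes cannot be told from that share. Their log2 fold changes were 0.23, 0.39, -0.05, 0.05 and -0.11, in the order named.

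Many genes of the lysosome carry, near their start, the palindrome that basic helix-loop-helix factors of the MiT/TFE family (Tfeb, Tfe3, Mitf, Tfec) bind. Promoters of 300 bases, 250 before and 50 after the start, were taken from RefSeq (GRCm38.p6), where 44 of the 53 genes had an entry. The core CACGTG was found in 16 of these 44 genes (36.4%) and in 8.09% of 27025 genes with an entry. Its extension TCACGTGA was found in 7 genes (15.9%, and 1.12% of all genes) and the longer CLEAR motif, which adds a G before and a C after it, in 2, Cln3 and Igf2r (4.55%, and 0.370% of all genes). Each of these motifs reads the same on both strands, and the shorter ones lie within the longer. The core was in 0 of the 6 called genes that had an entry. The 16 genes with the core had a median log2 fold change of 0.13, with 8 at an unadjusted p under 0.05, and the 28 genes without it a median of 0.13, with 10 at such a p. Printed here are 5 promoter stretches with the core and that of Cd63, which has none in this window, with 100 bases before the start and the first 10 bases from it, 5′ to 3′ on the strand of the gene, with CACGTG in capitals. The 5 stretches with the core are those of Sumf1, Mcoln1, Lamp1, Igf2r and Arsa, 5 of the members with separate groups and higher values. Sgsh, the member with separate groups and lower values, also had a core, at -29 bases from the start. As each stretch holds only 100 bases before the start, it cannot show how close to the start cores lie in general. Cores lay farther away in other members, at -236 bases from the start in Ctsl and -140 in Gaa. In Lgmn (-49) and Naglu (-73) the core lay within 100 bases, although the groups overlapped.
Sumf1 (chr6:108185574-108185683, minus strand): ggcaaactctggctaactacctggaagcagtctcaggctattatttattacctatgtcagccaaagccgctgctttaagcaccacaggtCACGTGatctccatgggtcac
Mcoln1 (chr8:3500419-3500528, plus strand): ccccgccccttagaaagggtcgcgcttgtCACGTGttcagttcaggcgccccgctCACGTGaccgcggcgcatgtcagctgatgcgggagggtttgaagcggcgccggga
Lamp1 (chr8:13159061-13159170, plus strand): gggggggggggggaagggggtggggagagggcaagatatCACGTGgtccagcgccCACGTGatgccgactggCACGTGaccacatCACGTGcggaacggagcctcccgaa
Igf2r (chr17:12769697-12769806, minus strand): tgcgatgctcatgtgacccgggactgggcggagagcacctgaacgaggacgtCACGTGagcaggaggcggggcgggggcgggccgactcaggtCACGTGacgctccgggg
Arsa (chr15:89477415-89477524, minus strand): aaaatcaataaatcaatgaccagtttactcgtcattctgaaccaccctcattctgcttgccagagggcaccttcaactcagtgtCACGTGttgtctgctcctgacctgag
Cd63 (chr10:128909245-128909354, plus strand): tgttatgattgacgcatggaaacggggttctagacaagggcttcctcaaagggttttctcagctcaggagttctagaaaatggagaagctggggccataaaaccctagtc
Lamp1 holds 4 cores in this stretch, Mcoln1 and Igf2r 2 each, and Sumf1 and Arsa 1 each.

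The genes of the factors themselves were not called, and 0 had an unadjusted p under 0.05. Mitf had a log2 fold change of 0.11 (adjusted p = 0.590), Tfe3 of -0.06 (adjusted p = 0.647) and Tfeb of -0.09 (adjusted p = 0.777), and Tfec was not well above background. The signals of each overlapped between the groups.

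For 17 of the 53 genes more than 1 probe could be compared, and in 12 of them all probes had the same sign. The 5 exceptions were Acp2, Gaa, Sgsh, Slc17a5 and Sort1. Acp2, a lysosomal acid phosphatase, had -0.12 (SE 0.182) with its brightest probe, on which wildtype sample 4 stood at 10.11 and the other wildtype samples at 9.24 to 9.31, and 0.16 (SE 0.054, adjusted p = 0.177) with the other. Slc17a5 had -0.00 with its brightest probe and 0.21 (SE 0.065, adjusted p = 0.131) with the other. Cln3, a membrane protein lost in juvenile neuronal ceroid lipofuscinosis, had 0.10, 0.03 and 0.60 with its 3 probes, none of them called. On the dimmest probes of Acp2, Slc17a5 and Cln3 every α-Gal A(-/0) sample was above every wildtype sample. In 0 genes was one probe called and another not, since each of the 7 called genes had 1 probe that could be compared.

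**Figure D4:**
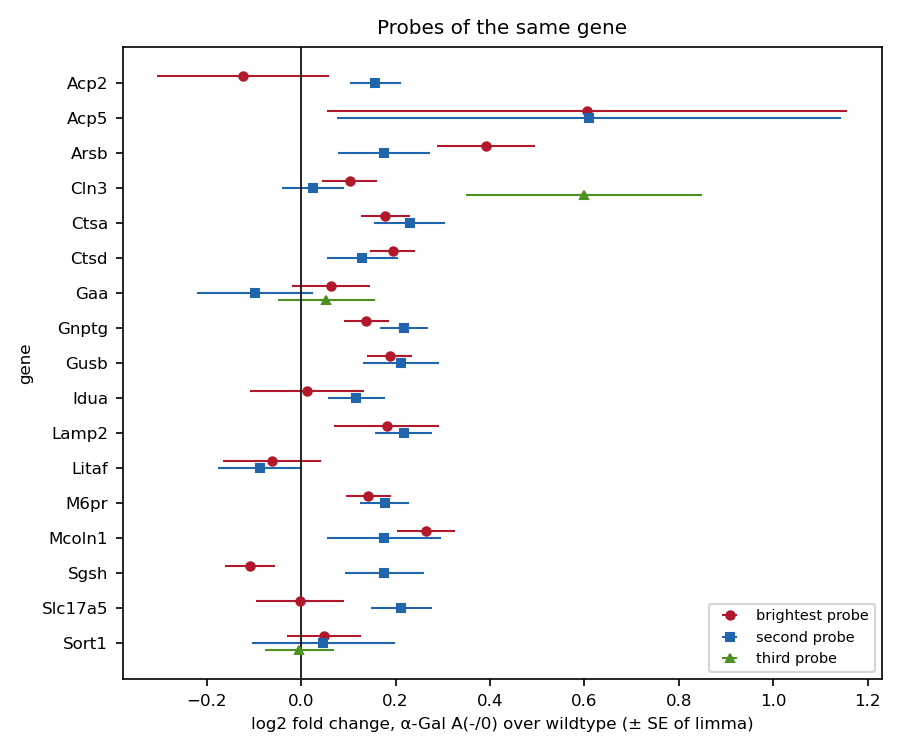
Log2 fold change (x axis, α-Gal A(-/0) over wildtype, with the standard error from limma) of each probe of the 17 genes with several comparable probes, ordered by brightness. Probes of M6pr, Gnptg, Gusb, Ctsa and Ctsd lie close together, whereas those of Sgsh, Acp2 and Slc17a5 lie on either side of 0.

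A second list, of 75 other lysosomal genes, was measured for 70. Of these 6 rose and 1 fell, where 2.02% of all genes rose and 1.1% fell. The median log2 fold change was 0.09, and 47 values (67.1%) were positive, beside 55.7% of all genes. At an unadjusted p under 0.05, 21 were higher and 4 lower, beside 10.6% and 7.11% of all genes. The groups were separate in 22 with higher and 3 with lower values, beside 8.62% and 5.12% of all genes. Laptm5 (-0.61, adjusted p = 0.0870) and Ctse (-0.95, adjusted p = 0.114) had lower values without being called. Scpep1, a serine carboxypeptidase, had 12.83, 12.78, 12.92 and 12.85 in α-Gal A(-/0) samples and 11.89, 11.83, 12.10 and 12.08 in wildtype samples (1.83-fold, adjusted p = 0.000589). Dpp7, a dipeptidyl peptidase, rose 1.65-fold (adjusted p = 0.000676). The fold changes of Scpep1 and Dpp7 were larger than that of any called member, a difference that was not tested. Neu1, the neuraminidase that Ctsa protects, had a log2 fold change of 0.43 (adjusted p = 0.00644), the membrane protein Tmem192 of 0.28 (adjusted p = 0.0208) and Gm2a, the activator of ganglioside breakdown, of 0.27 (adjusted p = 0.0476). Ppt1, the palmitoyl-protein thioesterase, fell by 0.46 on the log2 scale (adjusted p = 0.0121), whereas its relative Ppt2 among the 53 genes had a log2 fold change of 0.01 (adjusted p = 0.973).

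Macrophages and other phagocytes are rich in lysosomes, and their markers were therefore read beside these genes. Of 17 macrophage markers above background (with Mpeg1, Csf1r, Aif1, C1qa and Ptprc among them) 0 were called. Log2 fold changes were negative in 15 of them, with a median of -0.09. At an unadjusted p under 0.05, 1 was higher, Mpeg1 (log2 fold change 0.25, adjusted p = 0.179), and 1 lower, Aif1 (-0.46, adjusted p = 0.233). The mean log2 signal of the 17 markers was 9.13 to 9.58 in α-Gal A(-/0) samples and 9.38 to 9.67 in wildtype samples. Cd163 was not well above background. Cd68, counted in the second list, had a log2 fold change of 0.51 with separate groups (adjusted p = 0.0573). Of 10 markers of lipid-laden macrophages 3 rose, Lgals3 (log2 fold change 1.02, adjusted p = 0.00224), Trem2 (0.81, adjusted p = 0.0229) and Gpnmb (1.58, adjusted p = 0.0346). The mean over these 10 was 12.43 to 12.54 in α-Gal A(-/0) samples and 12.09 to 12.20 in wildtype samples. The median log2 fold change of the 10 was 0.05, with 6 positive and 4 negative values (Cd9, Spp1, Lpl and Apoe), so that the difference in the mean comes mostly from the 3 genes that rose. Tyrp1, a pigment cell gene, rose (1.15, adjusted p = 0.00336), Tyr, the other pigment cell gene that could be compared, had a log2 fold change of -0.08 (adjusted p = 0.737), and Dct, Pmel, Mlana, Slc45a2 and Oca2 were not well above background. The part of these cells in the result was not tested.

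Negative values prevailed among the markers of several other tissue components, with no gene of these lists called as lower. All 11 Schwann cell and myelin genes had negative values (median -0.15, none called, 4 at an unadjusted p under 0.05), with a mean log2 signal of 12.18 to 12.37 in α-Gal A(-/0) samples and 12.25 to 12.55 in wildtype samples. The same held for 9 of 9 fibroblast genes (median -0.19), with 11.66 to 12.04 in α-Gal A(-/0) samples and 11.89 to 12.25 in wildtype samples, and for 5 of 5 red blood cell genes (median -0.41), with 11.58 to 12.37 in α-Gal A(-/0) samples and 12.15 to 12.86 in wildtype samples. The median was -0.13 over 9 endothelial genes, 0.03 over 8 satellite glia genes and -0.03 over 14 sensory neuron genes. Of these 14 genes, 5 had positive and 9 negative values. The groups were separate in 3 with higher values and in 2 with lower values, Avil and Scn10a. Tac1 rose (log2 fold change 0.34, adjusted p = 0.0493), and Avil just missed the threshold (log2 fold change -0.27, adjusted p = 0.0565). Whether these components had a part in the lysosomal differences was not tested.

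The single calls were less stable than the direction of the list. Cd63 was called under all 18 alternative settings, with an adjusted p of at most 0.0387. Npc2 was called under 11 of the 18, Manba under 10, Aga under 8, Man2b1 under 7, Tpp1 under 6 and Lipa under 5, and the log2 fold change of all 7 stayed positive throughout. Leaving out any 1 sample lowered the number of called members, to 5 without wildtype sample 1, to 3 without wildtype sample 2, to 2 without α-Gal A(-/0) sample 1 or wildtype sample 4, and to 1 without any of the others, and it also leaves fewer samples to the test. With the methods' t-test 3 members rose (Cd63, M6pr and Npc2) and 0 fell, where 0.589% of all genes rose and 0.332% fell. Members with higher values at an unadjusted p under 0.05 numbered 16 to 23 under these settings, and those with lower values 0 or 1.

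**Figure D5:**
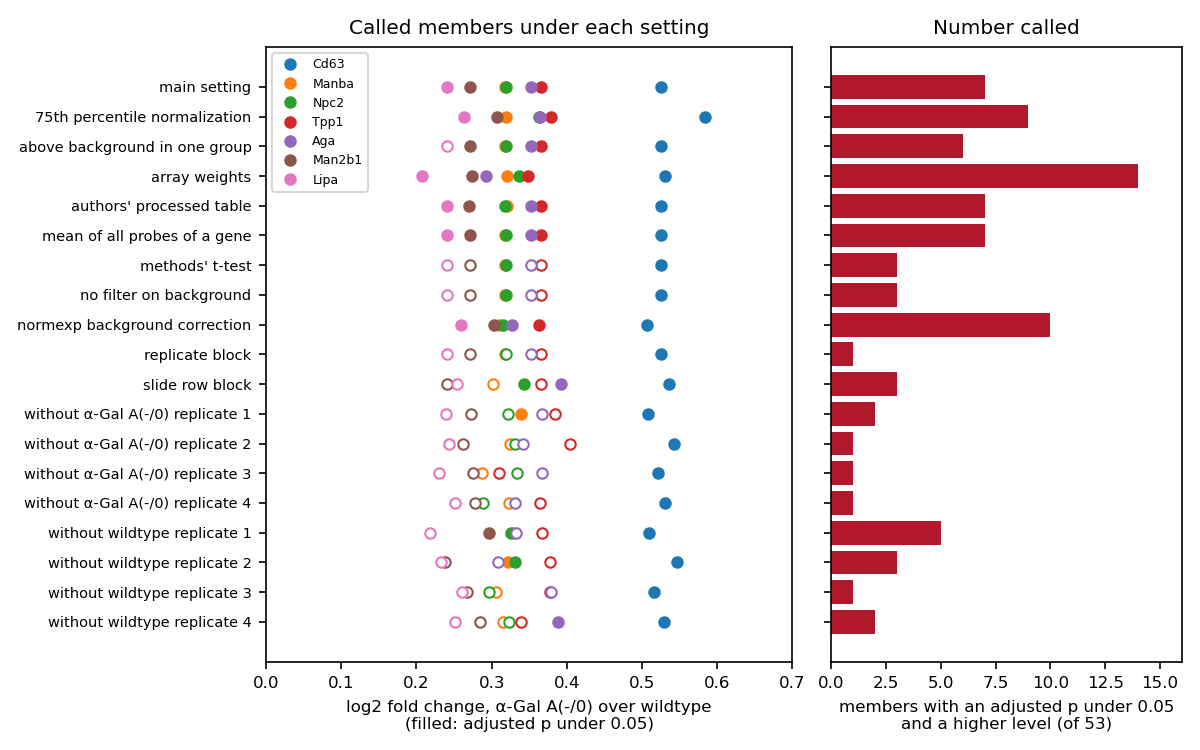
Left, log2 fold change (x axis, α-Gal A(-/0) over wildtype) of the 7 called genes under the main setting and 18 alternatives, filled where the adjusted p is under 0.05. Right, the number of the 53 genes called as higher under each setting, which was 7 under the main setting and ran from 1 to 14 under the others.

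Position in the genome was examined for the 7 called genes, because the lines came from separate colonies. Within 1 Mb of their probes 5 other genes were called, Bdh2 and Slc9b2 beside Manba (2 of 11 compared), Acot6 beside Npc2 (1 of 45), Vps35 beside Man2b1 (1 of 51) and Ifit1, which fell, beside Lipa (1 of 16). Near Cd63, Tpp1 (0 of 27) and Aga (0 of 2) none was called. Of all compared genes 2.02% rose and 1.1% fell. Whether position had a part in the differences was not tested.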

How the data were processed

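RNA of lumbar DRGs was measured on Agilent mouse arrays in 1 color. The deposited spot values are intensity values, background-adjusted and detrended with Agilent Feature Extraction 10.7.3.1 (named in the file headers), together with other flags for outliers and signal above background. The deposited table of log2 values, quantile normalized by the authors, served as an alternative, and no columns of the authors' comparisons were used.

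Outlier spots (93 to 221 of the 59305 spots per array that were not controls) were left out. Log2 signals were averaged per probe and quantile normalized over 55681 probes. The 29432 probes well above background on all 8 arrays were compared with limma 3.58.1 in R 4.3.3, with Benjamini-Hochberg adjustment over all of them, and a called gene has an adjusted p under 0.05. The number of arrays limits the precision. A gene is its brightest tested probe, and probe positions are on mm9. Symbols were looked up through RefSeq accessions for 28026 probes, and the symbol changed for 1651 probes.

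The members, gene lists and tests were chosen with earlier results of these data known. Genes with full values are called members, up to 4 members per role by p, Gla, 6 other lysosomal genes (of which 1 is not reported here), the MiT/TFE genes and up to 2 markers per cell type. Acp5, Arsb, Sgsh, Cln3, Lamp2 and further genes given beside these were picked with their values in view. Alternatives were another normalization, background correction, filter, probe rule, test, weighting and block, the deposited table, and each sample left out.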

Additional observations from a re-analysis of the deposited data

Results flagged for a closer look

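A value stood apart when the distance to its neighbor filled more of the range of its group than Dixon's limit for 4 samples allows. Chance alone gives this in about 1 of 20 groups, and here 6 of 116 groups of named genes had such a value. Of the members, Ctsd was lower in wildtype sample 4 (15.50, against 15.52 in the other wildtype samples) and Igf2r in wildtype sample 2 (10.53, against 10.65 to 10.67). Among other genes, wildtype sample 2 was lower in Tfe3 (12.81, against 13.01 to 13.03). Wildtype sample 3 was lower in Glul, a satellite glia gene (12.86, against 13.36 to 13.42). α-Gal A(-/0) sample 3 was higher in Mitf (10.07, against 9.89 to 9.91) and α-Gal A(-/0) sample 4 lower in Dcstamp, an osteoclast gene (5.04, against 5.59 to 5.70). Values are log2 signals, and no cause was tested.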

How the results depend on the processing

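The number of members called as higher, 7, became 14 with array weights, 3 with the methods' t-test, 3 with no filter on background and 3 with the slide row as a block, and it stayed within 1.5 times under the other settings with all samples, apart from the replicate block. No member was called as lower under any setting. Without α-Gal A(-/0) sample 1 there were 2, without sample 2, 3 or 4 there was 1 each, and without wildtype samples 1 to 4 there were 5, 3, 1 and 2, a range of 1 to 5. The labels number the samples of both groups 1 to 4, but same-numbered samples did not deviate together (correlations of -0.25 to 0.06, and 1 of 4 α-Gal A(-/0) samples correlated best with its own number). With the replicate number as a block 1 member (Cd63) and 2 other lysosomal genes were called as higher. The median log2 fold change of the members, 0.12, was 0.15 with scaling to the 75th percentile, and 0.10 without wildtype sample 1 and 0.095 without wildtype sample 4, its lowest value. Of the other lysosomal genes, 17 were higher and 2 lower with array weights, and 0 were lower with the methods' t-test. The sign turned for the log2 fold change of Gla (0.0015 at the 75th percentile, 0.046 with array weights, and 0.0064 without wildtype sample 2, with -0.069 to 0.0064 over single samples left out), the log2 fold change of Tfeb (0.00323 with array weights, and 0.034 without wildtype sample 1, with -0.17 to 0.034), the log2 fold change of Ibsp (-0.028 with array weights, and -0.013 without wildtype sample 2, with -0.013 to 0.16) and the log2 fold change of Sgsh (0.034 with the mean of its probes), none of them called. The causes were not tested. Of 1044 values of named genes under alternatives, 919 kept direction and side of the threshold, 93 lost the call, 24 gained it and 8 turned.

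With 4 samples a group, differences of the size of the members' median are near the spread between samples, and a missed threshold does not show that levels were equal. Each sample pooled 2 mice, so the spread between animals is not seen. Probes of 1 gene can report different transcripts, and 36 members rest on 1 probe.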
